A study of Arabidopsis thaliana with 9 samples.

Results

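Type-A response regulators (ARRs) are the small cytokinin-induced proteins that restrain cytokinin signalling in Arabidopsis thaliana. The family was taken here as 10 genes matched by locus identifier, ARR3 (AT1G59940), ARR4 (AT1G10470), ARR5 (AT3G48100), ARR6 (AT5G62920), ARR7 (AT1G19050), ARR8 (AT2G41310), ARR9 (AT3G57040), ARR15 (AT1G74890), ARR16 (AT2G40670) and ARR17 (AT3G56380). All 10 were found among the 32833 genes of the deposited expression data, and 8 of them, all but ARR3 and ARR17, had a mean level of at least 0.5 FPKM (mapped fragments scaled to transcript length and library total) over the samples. RNA was sequenced from wild-type Columbia-0 shoots of plants about 4 weeks old, in 9 samples, each a pool of rosettes from several plants. The control group was not flooded (3 samples). The submergence group stood under still water for 30 min (3 samples), and the flooding group was under water flowing at 8 L/s for 30 min (3 samples). The deposited values name the stresses only as Stress1 and Stress2, which were taken as submergence and flooding in that order. The comparisons ask how standing water, moving water and the difference between them changed these transcripts.

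Cytokinin is bound by the receptor kinases AHK2, AHK3 and AHK4, which pass phosphate through phosphotransfer proteins (AHPs) to type-B response regulators such as ARR1. Phosphorylated type-B regulators bind DNA and switch on target genes, and the type-A genes are among the fastest of these targets. Type-A proteins have the phosphate-receiving domain but no DNA-binding domain, and they feed back to damp the pathway, so their transcripts are widely used as a readout of cytokinin signalling. In leaves cytokinin is known for sustaining cell division, stomatal formation and greening, and for delaying senescence. The members fall into pairs of close relatives, which are ARR3 with ARR4, ARR5 with ARR6, ARR7 with ARR15, ARR8 with ARR9, and ARR16 with ARR17.

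The 250 bases before the annotated start are shown for 6 members. These are the 4 whose transcripts passed the test under flooding (ARR6, ARR16, ARR8 and ARR4), the close relative of ARR6 that did not (ARR5), and ARR7, which matched ARR6 in its number of type-B core sites. Capitals mark AGATT, the core of the site bound by type-B regulators, or AATCT where it lies on the other strand. The sequences were read from the RefSeq genome (TAIR10.1), in which all 10 members have the start and end given in the deposited data.
ARR6, chr5:25254319-25254568, minus strand: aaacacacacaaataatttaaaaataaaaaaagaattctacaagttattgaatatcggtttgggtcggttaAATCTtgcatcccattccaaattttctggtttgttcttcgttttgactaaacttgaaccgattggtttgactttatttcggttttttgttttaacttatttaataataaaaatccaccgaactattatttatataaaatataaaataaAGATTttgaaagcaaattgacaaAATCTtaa
ARR5, chr3:17760951-17761200, minus strand: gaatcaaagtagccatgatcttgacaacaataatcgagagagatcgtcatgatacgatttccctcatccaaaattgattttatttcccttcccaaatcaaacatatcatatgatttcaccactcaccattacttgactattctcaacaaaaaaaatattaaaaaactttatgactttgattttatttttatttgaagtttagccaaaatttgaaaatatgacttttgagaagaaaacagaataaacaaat
ARR7, chr1:6579315-6579564, minus strand: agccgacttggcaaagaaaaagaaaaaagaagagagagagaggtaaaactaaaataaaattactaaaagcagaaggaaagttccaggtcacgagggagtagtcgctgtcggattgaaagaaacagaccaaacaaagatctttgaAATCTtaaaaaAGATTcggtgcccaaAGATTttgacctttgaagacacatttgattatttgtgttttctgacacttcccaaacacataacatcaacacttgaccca
ARR16, chr2:16969423-16969672, plus strand: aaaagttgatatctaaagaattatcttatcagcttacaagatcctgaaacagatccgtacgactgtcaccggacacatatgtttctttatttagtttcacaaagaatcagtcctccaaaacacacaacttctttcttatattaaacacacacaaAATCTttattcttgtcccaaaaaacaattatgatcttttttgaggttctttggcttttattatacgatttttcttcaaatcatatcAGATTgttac
ARR8, chr2:17221590-17221839, plus strand: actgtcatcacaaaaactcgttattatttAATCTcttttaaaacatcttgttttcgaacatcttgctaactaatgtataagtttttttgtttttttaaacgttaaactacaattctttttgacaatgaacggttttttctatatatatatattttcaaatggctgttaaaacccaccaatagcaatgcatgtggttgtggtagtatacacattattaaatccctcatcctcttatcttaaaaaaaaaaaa
ARR4, chr1:3444361-3444610, minus strand: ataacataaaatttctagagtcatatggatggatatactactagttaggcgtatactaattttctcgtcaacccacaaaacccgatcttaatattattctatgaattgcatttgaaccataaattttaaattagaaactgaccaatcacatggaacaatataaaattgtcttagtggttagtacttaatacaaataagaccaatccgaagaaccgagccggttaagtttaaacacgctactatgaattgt

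The core AGATT was found on either strand in 7 of the 10 promoters, against 63.67% of 27419 promoters of protein-coding genes cut to the same length. ARR6 held 3 matches, which began 179, 31 and 8 bases before the start, and ARR7 held 3 within a short stretch, 106, 95 and 80 bases before it. ARR16 and ARR9 held 2 each, ARR3, ARR8 and ARR15 held 1 each, and ARR4, ARR5 and ARR17 held none. The mean over all promoters was 1.044 matches, and the share of promoters with 3 or more was not computed. The longer type-B site AGATACG, which shares its first bases with AGATT but cannot contain it, was in 1.692% of all promoters and in 0 of the 10. The auxin response element TGTCTC overlaps neither of them, and was in 10.95% of all promoters and in 1 member, ARR3. These matches describe letters in this window only.

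ARR6 was the member that fell furthest under both stresses. ARR6 lies on chromosome 5 (chr5:25252007-25254318, minus strand). Its transcript stood at 22.8, 25.3 and 10.08 FPKM in the control samples, 8.26, 2.40 and 4.39 FPKM under submergence, and 1.87, 2.95 and 2.31 FPKM under flooding. Every stressed sample lay below every control sample, and the submergence and flooding samples overlapped. The log2 fold change was -1.99 under submergence (SE 0.50, adjusted p = 0.0354) and -2.89 under flooding (SE 0.35, adjusted p = 0.000819), that is 3.98-fold and 7.42-fold lower. These and all other adjusted p-values are from limma on log2(FPKM + 0.1) with Benjamini-Hochberg adjustment over all genes tested, and a gene is called when its adjusted p is under 0.05. On this scale the change of genes with low values is understated.

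ARR16, which acts in the stomatal lineage of leaves, lies on chromosome 2 (chr2:16969673-16972113, plus strand). Its level was 27.9, 26.4 and 15.7 FPKM in the control samples, 18.2, 12.3 and 14.2 FPKM under submergence, and 11.6, 8.21 and 11.3 FPKM under flooding. The flooding samples were below all control samples and also below all submergence samples, whereas submergence replicate 1 overlapped the controls. ARR16 fell under flooding by 1.14 on the log2 scale (SE 0.24, adjusted p = 0.0110), which is 2.20-fold lower. Under submergence its log2 fold change was -0.62 (SE 0.24, adjusted p = 0.132). Its partner ARR17 was barely detected, at 0, 0.16 and 0 FPKM in the control samples, 0.09, 0.63 and 0.50 under submergence, and 0.43, 0.26 and 0.48 under flooding. ARR17 was therefore below the minimum for testing. With no minimum it was the only member to pass in the upward direction, under flooding (adjusted p = 0.0265) and not under submergence (adjusted p = 0.145), and no fold change is given because it is listed at 0 in 2 control samples.

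ARR8 and ARR9 are a pair on chromosomes 2 and 3 (chr2:17221840-17224880, plus strand, and chr3:21109059-21111567, plus strand). ARR8 was at 13.5, 10.7 and 10.9 FPKM in the control samples, 13.8, 8.84 and 6.44 FPKM under submergence, and 6.04, 8.82 and 5.68 FPKM under flooding. Flooding samples were all below the controls, while submergence replicate 1 was above all of them. ARR8 fell under flooding by 0.78 on the log2 scale (SE 0.18, adjusted p = 0.0174, or 1.72-fold lower), and its log2 fold change under submergence was -0.33 (adjusted p = 0.440). ARR9, whose transcript follows the circadian clock, was at 36.2, 29.2 and 24.6 FPKM in the control samples, 49.3, 23.4 and 31.8 FPKM under submergence, and 18.7, 24.3 and 20.6 FPKM under flooding. All flooding samples of ARR9 were below the controls, by a narrow margin, and its log2 fold change of -0.49 did not pass the test (SE 0.16, adjusted p = 0.0554). It was the 1 member with a positive log2 fold change under submergence (0.16, SE 0.27, adjusted p = 0.726).

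ARR4, which binds the light receptor phytochrome B, was the most abundant member in every group. ARR4 lies on chromosome 1 (chr1:3441988-3444360, minus strand). It stood at 78.9, 69.4 and 44.6 FPKM in the control samples, 73.4, 35.2 and 46.6 FPKM under submergence, and 37.1, 39.9 and 37.4 FPKM under flooding. The flooding samples were close together and below all controls, and the submergence samples spread over nearly the whole control range. ARR4 fell under flooding by 0.71 on the log2 scale (SE 0.20, adjusted p = 0.0316, or 1.64-fold lower), and this call was lost when any sample other than control replicate 3 was left out (adjusted p between 0.0555 and 0.109). Under submergence the log2 fold change was -0.34 (SE 0.30, adjusted p = 0.494). Its close relative ARR3 (chr1:22065617-22067233) was listed at 0 in 8 of the 9 samples and at 0.03 FPKM in submergence replicate 1.

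ARR5, ARR7 and ARR15 did not pass the test under either stress. ARR5 (chr3:17758427-17760950, minus strand), the usual cytokinin reporter gene, was at 21.6, 21.2 and 10.08 FPKM in the control samples, 16.6, 15.0 and 9.47 FPKM under submergence, and 11.2, 14.6 and 8.99 FPKM under flooding. ARR7 (chr1:6577833-6579314, minus strand) was at 55.6, 46.3 and 16.2 FPKM in the control samples, 37.2, 11.3 and 23.5 FPKM under submergence, and 18.2, 13.6 and 13.3 FPKM under flooding. ARR15 (chr1:28131447-28133025, minus strand) was at 9.43, 7.81 and 1.46 FPKM in the control samples, 5.93, 2.56 and 2.73 FPKM under submergence, and 2.85, 1.37 and 1.43 FPKM under flooding. ARR7 and ARR15 are known for acting in stem cell niches, including the shoot apical meristem. In all 3 genes control replicate 3 lay within the range of the stressed samples, so the groups overlapped. The log2 fold change under flooding was -0.55 for ARR5 (SE 0.31, adjusted p = 0.235), -1.22 for ARR7 (SE 0.43, adjusted p = 0.0705) and -1.38 for ARR15 (SE 0.66, adjusted p = 0.165). Under submergence it was -0.32, -0.69 and -0.46, with adjusted p of 0.563, 0.451 and 0.700.

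**Figure D1:**
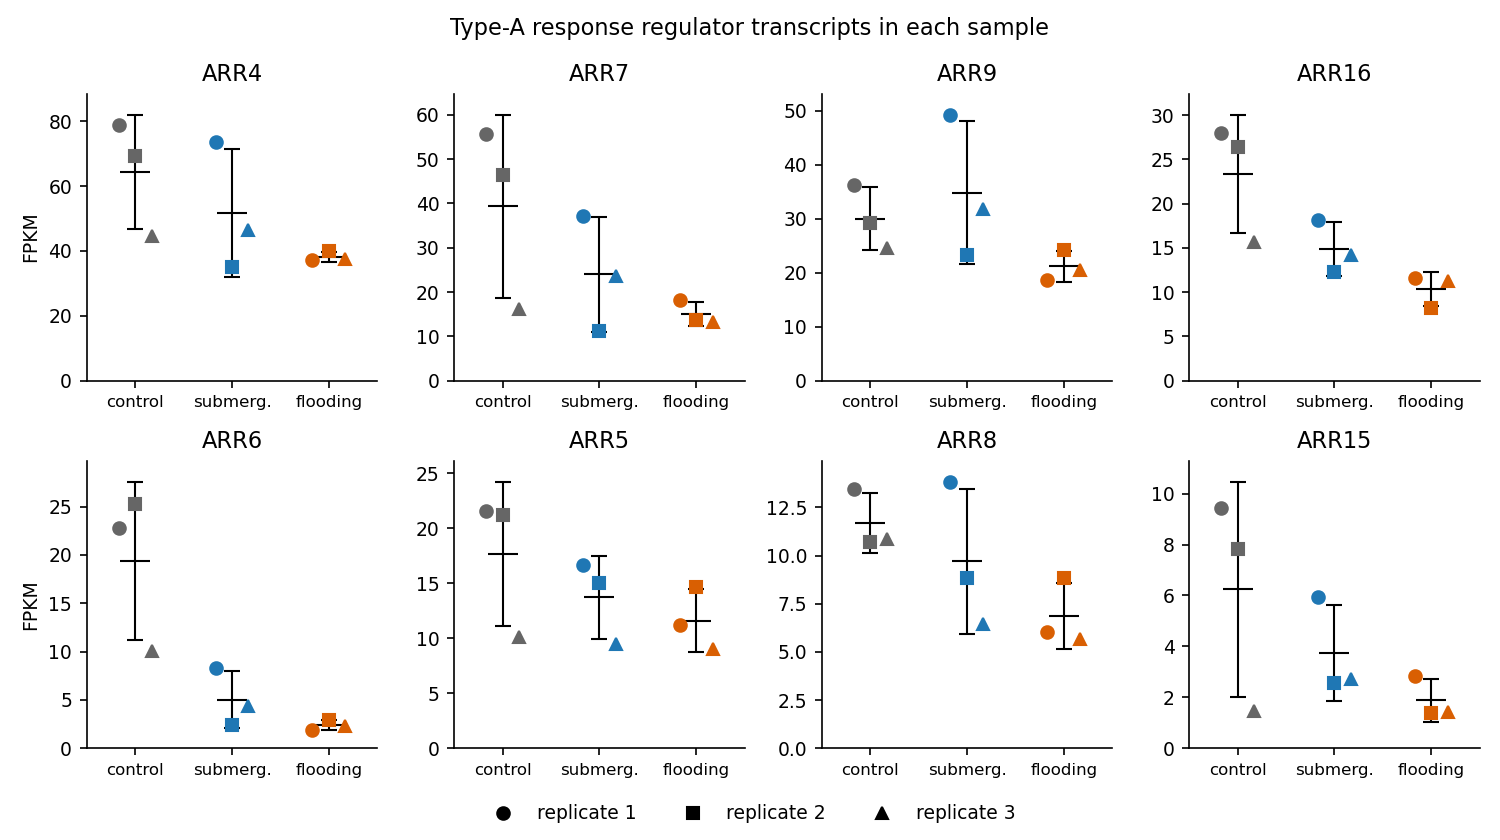
FPKM of the 8 members at a mean of at least 0.5 FPKM, 1 panel per gene, with 1 symbol per sample (circle, square and triangle for replicates 1, 2 and 3), a dash for the mean of 3 samples and bars for the SD. ARR6 separates all stressed from all control samples, whereas in ARR5, ARR7 and ARR15 control replicate 3 sits among the stressed samples.

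Counted over the family, flooding lowered 4 of the 8 tested members (ARR4, ARR6, ARR8 and ARR16) and raised 0. Over all 18806 genes tested, 17.2% were called lower and 11.4% higher. Every flooding sample lay below every control sample in 5 of the 8 members, against 30.8% of all genes. All 8 had a negative log2 fold change, with a median of -0.96 and a range from -2.89 to -0.49, while the median over all genes was -0.10 and 62.0% of them were negative. That shift of all genes became -0.01 after median-of-ratios rescaling, which moved the split of all called genes from 2137 higher and 3229 lower to 2600 higher and 2334 lower, and ARR4 then missed the threshold (adjusted p = 0.0532). The 8 negative directions under flooding held in each of 16 alternative fits. In pooled rosettes, fewer cells that express a gene and less of its RNA per cell cannot be told apart.

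Submergence lowered 1 of the 8, ARR6, and raised 0. Over all 18814 genes tested, 8.45% were called lower and 9.03% higher. ARR6 was also the 1 member whose submergence samples all lay below all controls, a separation shown by 21.9% of all genes, so a count of 1 in 8 is near the background. The members' median was -0.40 on the log2 scale, and 7 were negative, against a median of -0.03 and 54.4% negative over all genes. The ARR6 call was lost without control replicate 1, control replicate 2, submergence replicate 2 or submergence replicate 3 (adjusted p between 0.0794 and 0.127). With no minimum on FPKM its adjusted p was 0.0537.

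Flooding against submergence was the direct test between the stresses. Per the study's methods, submergence took place in a plastic container, and flooding in an open channel where metal anchors held the plants. Moving water therefore cannot be told apart from the vessel and the way plants were held. None of the 8 members was called (limma, adjusted p between 0.298 and 0.771), and neither was any of the 18864 genes tested (0%). At an unadjusted p under 0.05 there were 2 members, ARR9 and ARR16, against 14.7% of all genes. All 8 had a lower mean log2 value under flooding than under submergence, from -0.92 for ARR15 to -0.23 for ARR5, with a median of -0.52 against -0.07 over all genes. Such a negative difference was also seen in 62.2% of all genes. The unadjusted 95% interval of the difference was -0.97 to -0.056 for ARR16 and -1.28 to -0.032 for ARR9, and it included 0 for the other 6, among them ARR6 (-1.91 to 0.11) and ARR4 (-0.96 to 0.21). The 4 members called under flooding and the 1 called under submergence are thus not shown to be a difference between the stresses, and both comparisons use the same control samples.

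**Figure D2:**
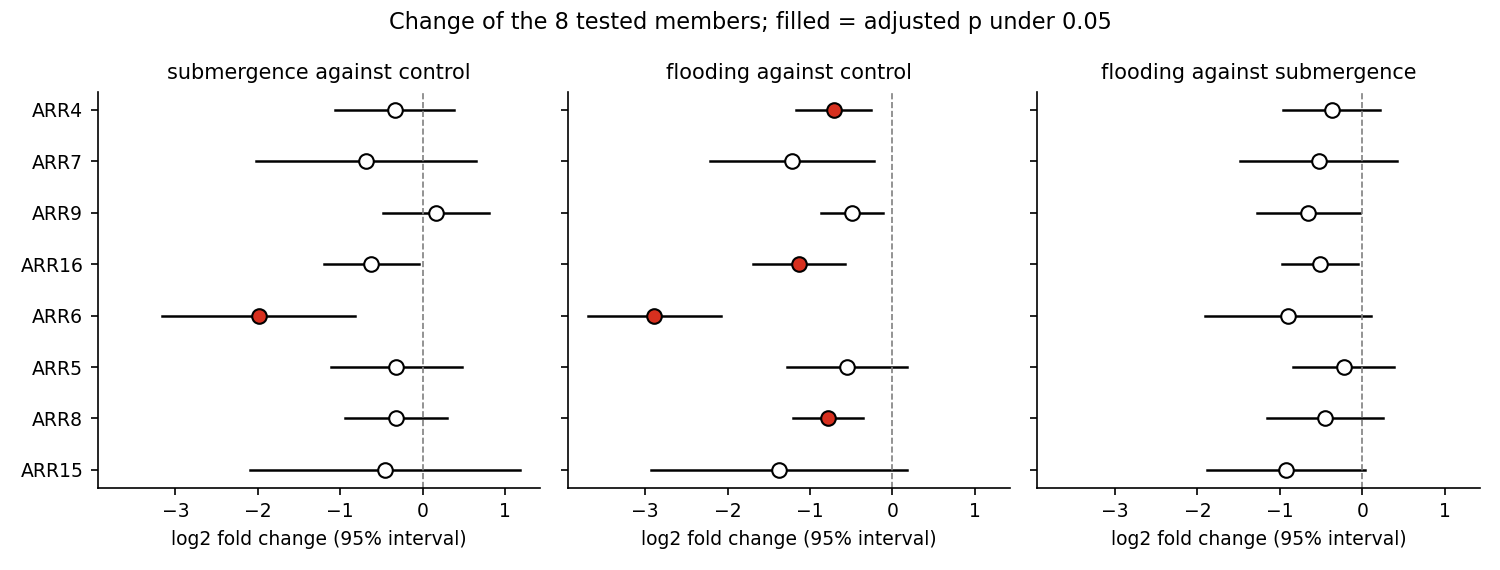
Log2 fold change of the 8 tested members in the 3 comparisons, with the 95% interval from limma, filled where the adjusted p is under 0.05. ARR6 is filled under both stresses, ARR4, ARR8 and ARR16 under flooding only, and no member is filled for flooding against submergence.

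The order of the members changed with stress. ARR6 moved from rank 5 in the control group to rank 7 under both stresses. ARR9 passed ARR7 under both stresses, and ARR5 passed ARR16 under flooding only. By mean FPKM, ARR4 led in the control group (64.3 ± 17.7, SD, n = 3), followed by ARR7 (39.4 ± 20.6), ARR9 (30.0 ± 5.85), ARR16 (23.3 ± 6.70), ARR6 (19.4 ± 8.15), ARR5 (17.6 ± 6.54), ARR8 (11.7 ± 1.56) and ARR15 (6.23 ± 4.21). Each neighbour in that order overlapped the next in its samples down to ARR8, and ARR8 and ARR15 did not overlap. Under flooding the order was ARR4 (38.1 ± 1.53), ARR9 (21.2 ± 2.85), ARR7 (15.0 ± 2.72), ARR5 (11.6 ± 2.84), ARR16 (10.4 ± 1.87), ARR8 (6.85 ± 1.72), ARR6 (2.38 ± 0.543) and ARR15 (1.88 ± 0.838). Here ARR4, ARR9 and ARR7 were separated from each other, and ARR8 from ARR6, without overlap. Under submergence ARR6 (5.02 ± 2.98 FPKM) had a lower mean than ARR5 (13.7 ± 3.75) and ARR8 (9.70 ± 3.76), and its samples overlapped those of ARR8.

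The summed level of the 10 members was 265.9, 236.6 and 133.5 FPKM in the control samples, 222.8, 111.5 and 139.6 FPKM under submergence, and 107.9, 114.0 and 101.4 FPKM under flooding. The flooding samples were all below the control samples, and the submergence samples overlapped both. ARR4 supplied 30.8% ± 2.27 of the sum in the control group, 32.6% ± 0.948 under submergence and 35.4% ± 1.29 under flooding (SD, n = 3). ARR6 supplied 8.93% ± 1.6, 3.00% ± 0.788 and 2.20% ± 0.433 in the same order. ARR9 supplied 14.8% ± 3.20, 21.9% ± 0.923 and 19.6% ± 2.07. Thus the ARR6 share was lower in every stressed sample than in any control sample, while the ARR9 share under flooding overlapped that of the controls.

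**Figure D3:**
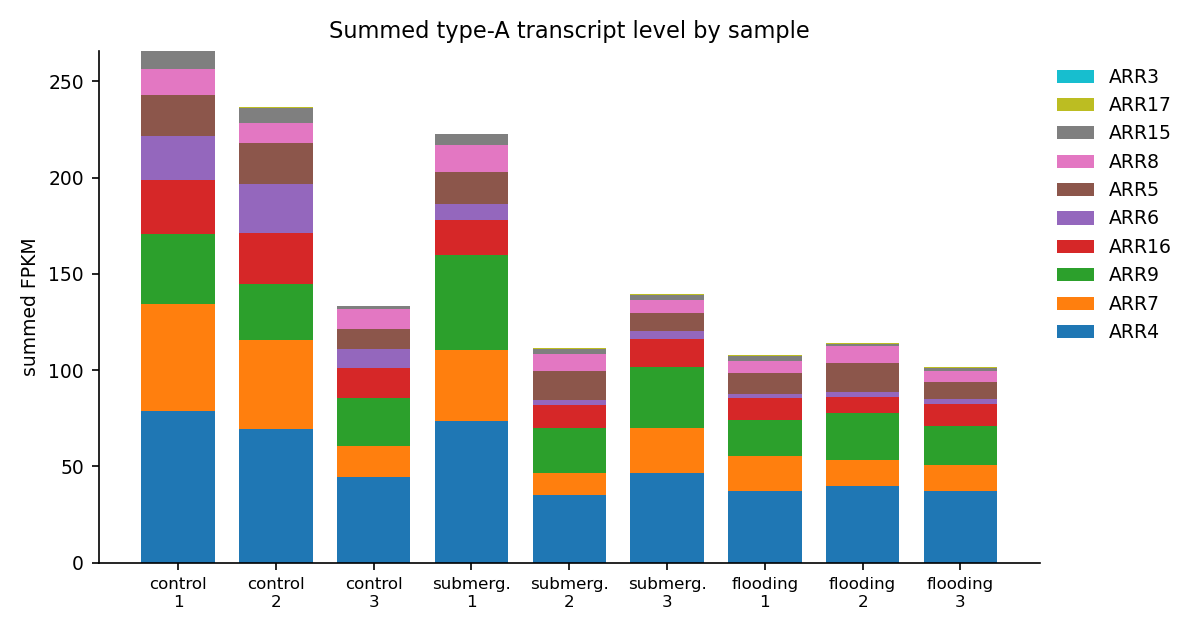
Summed FPKM of the 10 members in each of the 9 samples, with 1 colour per gene (ARR3 and ARR17 are too low to be seen). The bars of the flooding samples lie between 101.4 and 114.0 FPKM, and the ARR6 segment is narrow in all stressed samples.

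ARR6 and ARR5 parted within every stressed sample. The ratio of ARR6 to ARR5 was 1.05, 1.19 and 1.00 in the control samples, 0.496, 0.160 and 0.464 under submergence, and 0.168, 0.202 and 0.257 under flooding. The ratio was lower in all stressed samples than in all control samples, and control replicate 3, in which both genes were low, kept the ratio of the other controls. An exact two-sided permutation test gave p = 0.1 for each stress against control, which is the smallest that 3 samples against 3 allow, and p = 0.4 between the stresses. The ratios were chosen after the values had been seen, and 7 were computed. ARR6 over ARR4 behaved in the same way, with 0.288, 0.364 and 0.226 in the control samples, 0.112, 0.0682 and 0.0942 under submergence, and 0.0504, 0.0740 and 0.0618 under flooding. ARR15 over ARR7 overlapped between each stress and control (exact permutation p = 0.7 and 0.8). ARR8 over ARR9 overlapped the controls under submergence (exact permutation p = 0.3), and under flooding it lay between 0.276 and 0.363, just below the controls at 0.366 to 0.442 (exact permutation p = 0.1). ARR16 over ARR4 was 0.354, 0.381 and 0.351 in the control samples, and lay between 0.247 and 0.348 under submergence and between 0.206 and 0.313 under flooding, below all controls (exact permutation p = 0.1 for each).

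**Figure D4:**
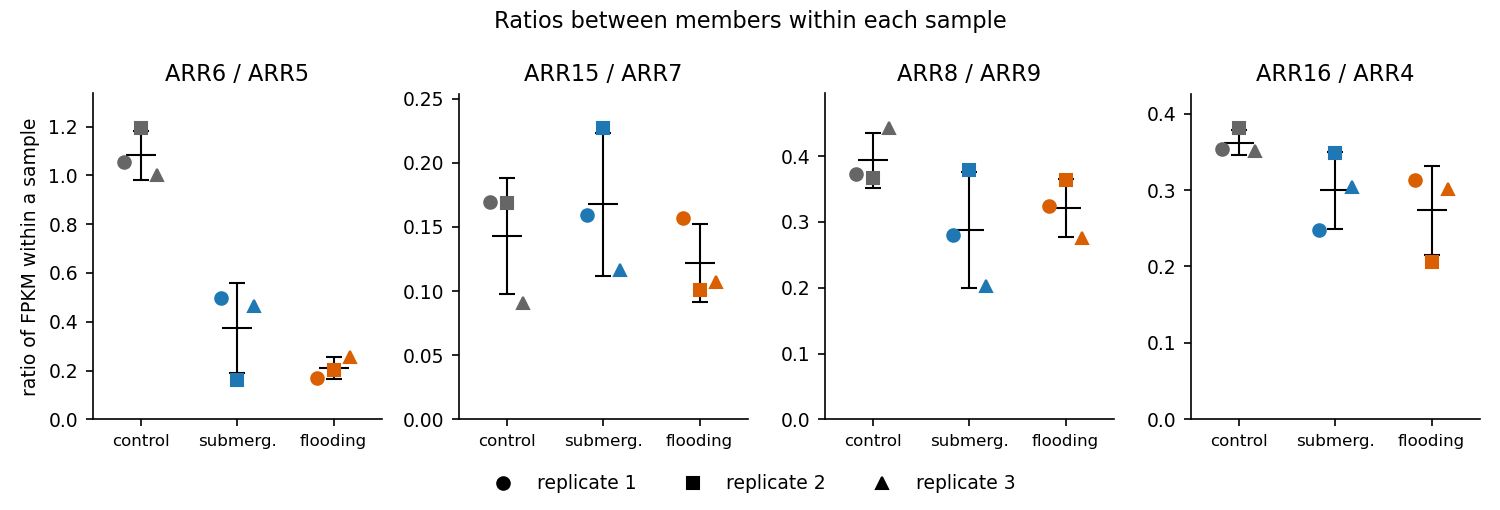
Ratio of the FPKM of one member to that of another within each sample, for 4 of the 7 pairs computed, with the mean and SD of 3 samples. The ARR6 to ARR5 ratio stays between 1.00 and 1.19 in the controls and between 0.160 and 0.496 in the stressed samples.

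Within the control and submergence groups every expressed member varied more than the median gene. The SD of the log2 values among the control samples was 1.44 for ARR15, 0.96 for ARR7, 0.72 for ARR6 and 0.62 for ARR5, against a median of 0.11 over all genes. Control replicate 3 was the lowest control in 7 of the 8 members, all but ARR8, with a median deviation of -0.94 on the log2 scale from the mean of the other controls, whereas over all genes its median deviation was -0.03 and it was the lowest in 39.8%. Submergence replicate 1 was the highest of its group in 8 of the 8 members (median deviation 0.86), against 46.5% of all genes. Among the flooding samples 7 of the 8 also exceeded the median gene (0.19), with SDs from 0.19 for ARR9 to 0.56 for ARR15, and ARR4 was below it at 0.06. ARR8 spread more under flooding (0.34) than in the control group (0.18). Without control replicate 3, all 8 members were called lower under flooding, and ARR6 and ARR16 under submergence. Of all genes, 1777 of 18835 were then called lower under flooding and 577 of 18852 under submergence. Without control replicate 1 or flooding replicate 1 the flooding calls were ARR6 and ARR16 only, and without control replicate 2 or flooding replicate 3 they were ARR6, ARR8 and ARR16. Without flooding replicate 2 they were ARR6, ARR8, ARR9 and ARR16, and without submergence replicate 1 those under submergence were ARR6 and ARR8. In these other flooding fits, all genes called lower ranged from 1643 of 18827 (without control replicate 2) to 3436 of 18856 (without flooding replicate 3). Without submergence replicate 1, 2187 of 18743 genes were called lower under submergence. What set control replicate 3 and submergence replicate 1 apart was not tested.

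The tissue labels were compared with marker genes. Summed FPKM of 5 rosette leaf markers was 39769 to 45765 in the control samples. It was 35410 to 38196 under submergence and 31154 to 38647 under flooding, so every stressed sum was below every control sum. CAB1 made up most of the sum (mean 25395 FPKM in the controls), and the markers did not move together. By limma 0 of the 5 were called lower under either stress. LHCB2.1 was called higher under submergence (log2 fold change 0.62, adjusted p = 0.00679) and flooding (0.70, adjusted p = 0.0110). RCA overlapped the controls under both stresses (-0.09 and -0.06). Each of 7 root markers was under 0.5 FPKM in all samples, and 4 of them were listed at 0 throughout. Summed FPKM of 12 shoot apex markers was 24.9 to 34.8 in the control samples, 24.2 to 59.6 under submergence and 20.3 to 44.2 under flooding, and was highest in submergence replicate 1. FIL and ANT made up most of this sum (means 18.5 and 6.53 FPKM in the controls), and 5 of the 12 stayed under 0.5 FPKM in all samples. The defining stem cell marker CLV3 was listed at 0 everywhere. The meristem gene STM was at 1.28, 0 and 1.05 FPKM in the control samples, 4.95, 2.31 and 0.05 under submergence, and 2.11, 3.28 and 0.02 under flooding. With the 1 sample per group at 0.05 FPKM of STM or less left out, a choice made after the values had been seen, 2 samples per group remained, and 1 member, ARR6, was called under flooding and 0 under submergence. Calls also fell over all genes, to 2072 of 18896 lower under flooding (3229 of 18806 with all samples) and 225 of 18863 under submergence (1590 of 18814). The log2 fold changes under flooding were then -1.09 for ARR16 (adjusted p = 0.0519), -0.72 for ARR8 (adjusted p = 0.0616) and -0.62 for ARR4 (adjusted p = 0.139), and that of ARR6 under submergence was -1.74 (adjusted p = 0.229). The 5 vascular markers summed to between 61.8 and 77.2 FPKM in the control samples, 64.4 and 66.4 under submergence, and 53.1 and 61.8 under flooding. The part of these markers in the results was not tested.

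The 66 other listed genes of the cytokinin pathway moved in both directions. Under flooding 9 of the 42 tested fell and 5 rose, where 17.2% of all genes were called lower and 11.4% higher. Under submergence 5 of the 43 tested fell and 7 rose, where 8.45% of all genes were called lower and 9.03% higher. Their median log2 fold change was -0.16 under flooding and 0.22 under submergence. Flooding against submergence gave 0 calls among 44 tested (11 at an unadjusted p under 0.05, beside 14.7% of all genes). Of the 5 tested AHPs, which carry phosphate from receptors to regulators, 0 were called by limma under either stress, with log2 fold changes between -0.38 and 0.26 (1 at an unadjusted p under 0.05 under submergence and 0 under flooding). An unadjusted p under 0.05 was reached by 6010 of 18814 genes under submergence and 7612 of 18806 under flooding.

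Among the receptors, AHK3, the main cytokinin receptor of leaves, fell under both stresses. AHK3 was at 31.0, 29.0 and 30.5 FPKM in the control samples, 21.5, 23.5 and 22.6 FPKM under submergence, and 20.8, 23.4 and 21.6 FPKM under flooding, with no overlap between stressed and control samples. Its log2 fold change was -0.42 under submergence (adjusted p = 0.0105) and -0.46 under flooding (adjusted p = 0.00553). AHK2 rose under submergence by 0.46 on the log2 scale (adjusted p = 0.0328), from 9.13, 10.50 and 9.60 FPKM in the controls to 11.8, 14.9 and 13.7 FPKM. Under flooding its log2 fold change was -0.08 (adjusted p = 0.561). AHK4 was not called under either stress.

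Of the 6 tested type-B regulators, which activate type-A genes, 1 was called, ARR1, which fell under flooding, as did 17.2% of all genes. ARR1 was at 47.9, 48.6 and 55.2 FPKM in the control samples, 47.3, 51.5 and 47.4 FPKM under submergence, and 33.9, 37.5 and 36.9 FPKM under flooding, where all samples were below all others. Its log2 fold change under flooding was -0.48 (adjusted p = 0.00637), and under submergence it was -0.05 (adjusted p = 0.716). The KMD F-box proteins mark type-B regulators for degradation. KMD3 fell under submergence (log2 fold change -0.87, adjusted p = 0.0149) and under flooding (-1.43, adjusted p = 0.00307), KMD4 fell under flooding (-0.88, adjusted p = 0.00114), and KMD2 rose under submergence (0.90, adjusted p = 0.0146). Not called were KMD4 under submergence (-0.52, adjusted p = 0.0659) and KMD2 under flooding (0.06, adjusted p = 0.893).

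Of the enzymes and carriers that set cytokinin levels, PUP14 changed most. PUP14 is a transporter that takes active cytokinin out of the space outside the cell, where the receptors can sense it. Its transcript was at 47.9, 42.6 and 41.9 FPKM in the control samples, 130.3, 241.2 and 217.0 FPKM under submergence, and 262.9, 255.4 and 333.9 FPKM under flooding. Every flooding sample was above every submergence sample, and every submergence sample above every control. PUP14 rose 4.30-fold under submergence (SE 0.22 on the log2 scale, adjusted p = 0.00185) and 6.39-fold under flooding (log2 fold change 2.68, SE 0.12, adjusted p = 8.68e-06), and the log2 difference between the stresses was 0.57 (adjusted p = 0.343).

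Of the 4 tested cytokinin oxidases, which break the hormone down, 1 was called under submergence and 2 under flooding, all of them higher. Of all genes, 9.03% and 11.4% were called higher in the same order. CKX7 rose under submergence (log2 fold change 0.90, adjusted p = 0.00638), and CKX4 (1.25, adjusted p = 0.0342) and CKX5 (1.22, adjusted p = 0.0295) rose under flooding. The same genes were also positive, but not called, under the other stress. These were CKX4 (1.00, adjusted p = 0.0960) and CKX5 (1.38, adjusted p = 0.0777) under submergence, and CKX7 (0.47, adjusted p = 0.112) under flooding. Among the LOG enzymes, which release the active hormone, LOG7 rose under submergence (1.18, adjusted p = 0.0188) and flooding (0.98, adjusted p = 0.00729), while the abundant LOG8 fell (-0.24, adjusted p = 0.0445, and -0.32, adjusted p = 0.0142). Of the synthesis genes, which include the isopentenyltransferases of the entry step, 4 were tested under submergence and 3 under flooding, and 0 were called by limma (1 and 0 at an unadjusted p under 0.05, beside 6010 of 18814 and 7612 of 18806 genes). Of the glucosyltransferases that inactivate cytokinin, UGT76C1 fell under submergence (-0.39, adjusted p = 0.0390) and flooding (-0.73, adjusted p = 0.00214), and UGT85A1 rose under submergence (0.89, adjusted p = 0.0434). UGT85A1 was also positive, but not called, under flooding (0.54, adjusted p = 0.0627).

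Other transcripts listed as induced by cytokinin moved both ways. The transcription factor gene CRF6 fell under submergence (log2 fold change -0.87, adjusted p = 0.00284) and flooding (-1.44, adjusted p = 0.000726), from 15.8, 19.7 and 18.03 FPKM in the controls to 7.91, 6.74 and 5.14 FPKM under flooding. CRF5 fell under flooding (-1.90, adjusted p = 0.0244), and so did HAT22, a homeodomain transcription factor gene (-1.16, adjusted p = 0.00195). Both were negative, but not called, under submergence (CRF5 -0.89, adjusted p = 0.189, and HAT22 -0.69, adjusted p = 0.126). CRF3, a relative not on that list, rose under submergence (1.10, adjusted p = 0.00603) and flooding (1.26, adjusted p = 0.00858). Of the 11 genes listed as cytokinin-induced besides the type-A family, 9 were tested under flooding, and 3 fell (CRF5, CRF6 and HAT22) while 2 rose (CKX4 and CKX5), beside 17.2% of all genes lower and 11.4% higher. Under submergence 10 were tested, and 1 fell (CRF6), beside 8.45% of all genes.

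**Figure D5:**
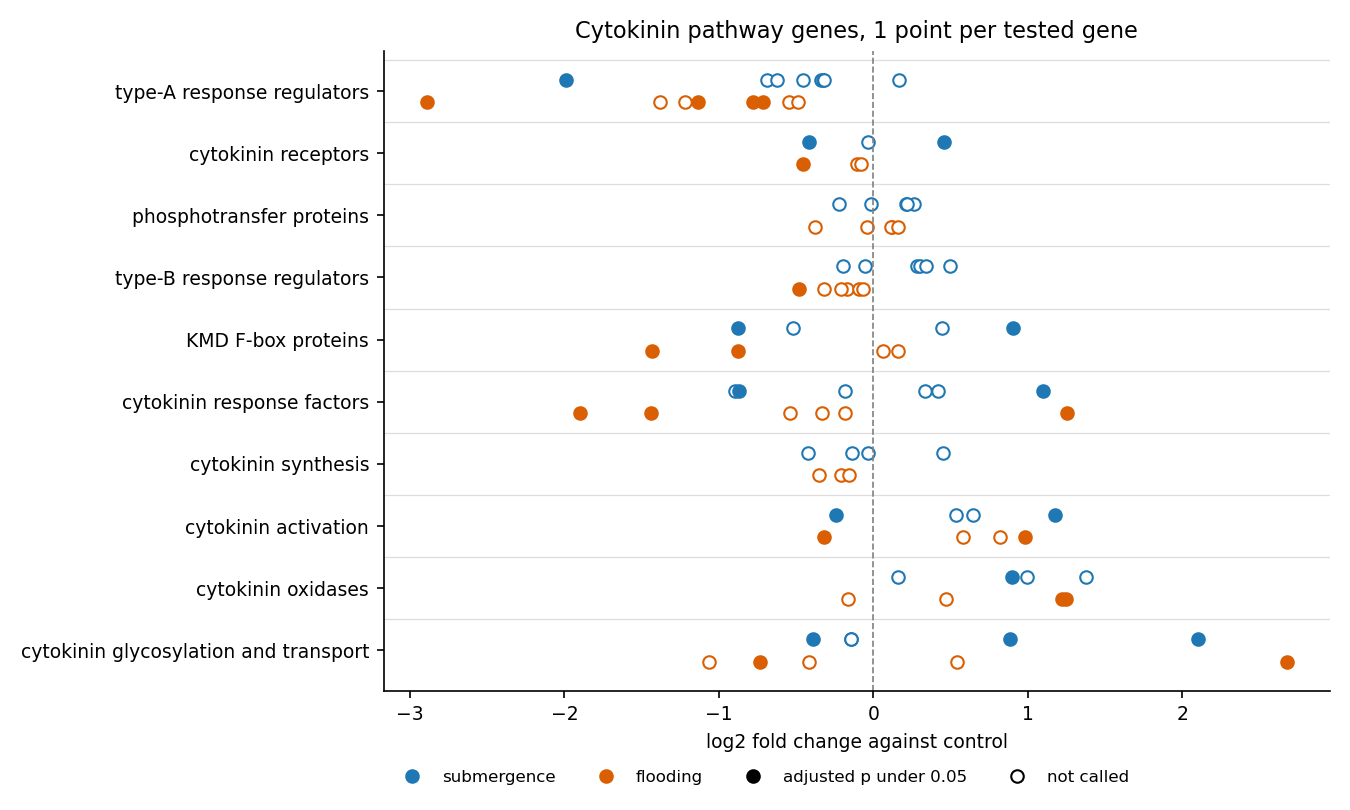
Log2 fold change against control of tested genes of the cytokinin pathway, 1 row per gene group, with submergence above and flooding below in each row, and filled points at an adjusted p under 0.05. HAT22 and ASL9, which are only on the list of other cytokinin-induced transcripts, are not drawn. Under flooding the type-A row lies to the left of 0, from -2.89 to -0.49, as do the rows of the receptors (-0.46 to -0.08), the type-B regulators (-0.48 to -0.07) and the synthesis genes (-0.35 to -0.16), while the other rows hold points on both sides and PUP14 lies furthest to the right, at 2.68.

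The genes whose profile was closest to each called member were found by the root mean square difference of log2 values over the 9 samples, among 12994 genes with a mean of at least 5 FPKM. For ARR16 the closest was HAT22, at 0.22, followed by AT2G15020 at 0.23. For ARR4 the closest were the germin-like gene GER3, at 0.13, and AT1G69040, which encodes a protein with ACT domain repeats, at 0.20. Like ARR4, GER3 was lowest in control replicate 3 and highest in submergence replicate 1 within those groups, with 89.8, 102.1 and 58.4 FPKM in the controls and 88.2, 43.7 and 61.7 FPKM under submergence. For ARR8 they were HIPP33 at 0.14 and GATL3 at 0.15. The nearest other type-A gene ranked 101 for ARR4 (ARR8), 114 for ARR6 (ARR7), 115 for ARR16 (ARR4) and 328 for ARR8 (ARR4).

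For ARR6 the closest profile, at 0.58, was AT5G62900, which lies 1974 bp from ARR6 on chromosome 5 (chr5:25248690-25250032). AT5G62900 was at 34.6, 38.7 and 36.1 FPKM in the control samples, 12.1, 8.64 and 9.83 FPKM under submergence, and 8.11, 7.13 and 5.47 FPKM under flooding. Its log2 fold change was -1.84 under submergence (adjusted p = 0.000753) and -2.40 under flooding (adjusted p = 2.6e-05), and its controls lay close together where those of ARR6 did not. Next came AT1G30260, at 0.59, on another chromosome. The gene between them, AT5G62910, overlaps ARR6 by 348 bp on the opposite strand, and was at 15.8, 17.9 and 21.3 FPKM in the control samples, 13.2, 12.4 and 13.1 FPKM under submergence, and 10.9, 11.7 and 11.2 FPKM under flooding. AT5G62910 fell too, by 0.49 and 0.69 on the log2 scale (adjusted p = 0.0311 and 0.00497). The libraries were made with a stranded kit, but whether strand was used in counting is not given in the sources used here, so reads in the shared 348 bp cannot be assigned with certainty. The genes that overlap ARR8 (AT2G09250) and ARR9 (AT3G08825) were listed at 0 in all samples. No stretch of 50 bases of a member's transcripts occurred in another member, and 77 of the 2280 stretches of ARR8 occurred elsewhere in the genome.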

How the data were processed

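Poly(A) RNA of 9 shoot samples was sequenced, and per the study's methods the reads were trimmed and aligned with STAR to TAIR10, after which the authors used featureCounts for counting and DESeq2 1.20.0 for testing. The deposited values are FPKM, made by the authors by dividing mapped reads by total counts and transcript length. The deposited file's name refers to RSEM, and which tool made the FPKM is not settled. The paper gives read totals for its libraries, but FPKM hold no counts per gene, so the spread between samples stands in for counting error.

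Groups come from the sample labels. The stressed columns are headed Stress1 and Stress2. Plot headings in the supplement, and the fold changes in its tables, gave Stress1 as submergence and Stress2 as flooding, and the digit gave the replicate, so each stated difference between the stresses rests on that assignment.

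FPKM were transformed to log2(FPKM + 0.1), and limma 3.58.1 (R 4.3.3, with the eBayes trend) was run two-sided on the 6 samples of each comparison, keeping genes whose mean FPKM reached 0.5, with Benjamini-Hochberg adjustment over all genes and a threshold of 0.05. Single ratios were compared by exact permutation. The members and gene lists were chosen with earlier results of these data known. Named are all members, the pathway genes called in any comparison, and the 2 profiles nearest to each called member. The alternatives were pseudocounts of 0.01 and 1, no minimum or one of 2 FPKM, scaling by median of ratios or quantiles, no trend, all 9 samples in one fit, a replicate block and leaving out each sample. Of the nuclear genes found in the RefSeq annotation, 32532 of 32548 had the deposited start and end. Figures were drawn with Python 3.11.15 and matplotlib 3.10.9.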

Additional observations from a re-analysis of the deposited data

Results flagged for a closer look

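In 5 of 44 other cytokinin pathway genes tested, every submergence sample lay above the control mean and every flooding sample below it. The share of all genes with this pattern was not computed, so the count has no background. No gene passed the direct test between the stresses (limma). The difference, flooding minus submergence on the log2 scale, was -0.54 for the receptor AHK2 (adjusted p = 0.163), -0.56 for ARR2 (adjusted p = 0.196), -0.43 for ARR12 (adjusted p = 0.181) and -0.47 for ARR14 (adjusted p = 0.257), which are type-B regulators, and -0.87 for CRF4 (adjusted p = 0.257). None of the 10 type-A members showed this pattern.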

How the results depend on the processing

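Under flooding, the ARR6 call held in 16 of 16 alternatives (log2 fold change -3.30 to -2.51), that of ARR16 in 15, ARR8 in 12 and ARR4 in 7. Under submergence the ARR6 call held in 9 of 16. The count of called members under flooding (4) became 2 with all 9 samples in one fit and 1 in the samples with STM above 0.05 FPKM (2 per group, where ARR16 was at -1.09, ARR8 at -0.72 and ARR4 at -0.62, against -1.14, -0.78 and -0.71), and ranged from 2 to 8 when 1 sample was left out. Under submergence (1) it became 0 with no minimum, without the trend and in the STM samples, with a range of 0 to 2, and between the stresses it stayed at 0. Pathway genes called under submergence fell from 5 lower to 3 without the trend and to 1 lower and 2 higher in the STM samples. Leaving out samples gave 3 to 4 lower and 4 to 9 higher under submergence, 7 to 11 lower and 3 to 7 higher under flooding, and 0 between the stresses, where all 9 samples in one fit gave 1 lower. Among all genes, 3288 were called under submergence, 773 in the STM samples and 1379 to 4206 with 1 sample out. Under flooding 5366 were called, 4077 in the STM samples and 3238 to 6133 with 1 sample out. Between the stresses 0 became 1 without the trend, 227 in one fit and 0 to 5 with 1 sample out. The summed FPKM of the members moved between 185.0 and 251.2 (control), 125.6 and 181.2 (submergence), and 104.7 and 110.9 (flooding). Directions reversed, all uncalled, under submergence for ARR5 (0.10) and ARR15 (0.055) in the STM samples, for ARR15 with samples left out (range -1.28 to 0.022, the highest without control replicate 1) and for ARR9 with samples left out (range -0.12 to 0.42, the lowest without submergence replicate 1). The cause was not tested in any of these.

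With the replicate number as a block (replicate block), 1 member was called under submergence, 5 under flooding (ARR7 added, adjusted p = 0.0331) and 0 between the stresses, and of all genes 2501, 4514 and 0. Same-numbered samples correlated at -0.14 to 0.11, -0.15 to 0.12 and 0.06 to 0.47 in the 3 comparisons, and 2, 0 and 4 of 6 samples correlated best with their own number, so the numbers were not taken as pairs.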
